A study of Homo sapiens with 16 samples.

Results

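The G1 cyclins, their kinases and the CDK inhibitors were examined as 10 genes of the 58787 gene identifiers in the table. They were the D-type cyclins CCND1, CCND2 and CCND3, the E-type cyclins CCNE1 and CCNE2, the kinases CDK2, CDK4 and CDK6, and the inhibitors CDKN1B and CDKN2C. The genes were found by symbol, for their place in the cell cycle, in a choice made with earlier results of these data known. The cells were IMR32, an established human neuroblastoma line with amplified MYCN, labelled as neuroblasts. All groups were transfected with a small interfering RNA (siRNA). 3 siRNAs of the labels, si45, si46 and si47, target TPX2, a spindle protein that activates the mitotic kinase AURKA, and siNTC is the non-targeting control. Each group had 4 biological replicates by the design text, which gives 16 libraries from 1 cell line, and the column names give 48 h. The labels name no separate culture or day for a replicate number, so p-values measure the spread between these libraries.

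In G1, D-type cyclins bind CDK4 or CDK6 and phosphorylate the retinoblastoma protein, which releases E2F transcription factors. E2F factors raise the E-type cyclins, which activate CDK2 and carry the cell into S phase. CDKN1B (p27) binds cyclin-CDK complexes, above all those of CDK2, and CDKN2C (p18) binds CDK4 and CDK6 directly. In neuroblastoma this pathway is known for high cyclin D1.

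Promoter windows from RefSeq (GRCh38.p14, 250 bases before to 50 after a gene's start) were searched on both strands for motifs of cell cycle promoters. 11 windows matched 6 of the 10 members. CCND1, CCND2, CCNE2 and CDK2 had no window, so their promoters were not searched. 2 stretches of 30 bases are shown, 1 before a cyclin and 1 before a kinase, because CCNE1 and CDK6 were the members whose windows held a pair of GC boxes (GGGCGG, the Sp1 motif) within that length and wholly upstream of the first base of the gene in the annotation. Where several pairs fitted, the pair nearest the gene is shown. Capitals mark the boxes, and the second box of CDK6 is read on the opposite strand.
CCNE1: ccggGGGCGGggcgagggacgGGGCGGgac
CDK6: cGGGCGGcgccctccgccgtccctCCGCCC
The CCNE1 stretch is chr19:29811843-29811872 on the plus strand, with boxes that start 144 and 127 bases before the RefSeq start. The CDK6 stretch is chr7:92836630-92836659 on the minus strand, with boxes 85 and 62 bases before the start. A GC box was in 8 of the 11 member windows and in 45% of 35116 windows of the same length. The E2F motifs TTTCCCGC, TTTGGCGC, TTTCGCGC and TTTGCCGC were in 0 member windows and in 3.31% of all windows. After that result the same 4 motifs without their first letter, which overlap them, were searched, and were in 1 member window (CDKN2C) and in 13% of all windows. The CHR motif TTTGAA was in 0 member windows and in 15.2% of all windows. A match describes letters in a window and is not a binding site.

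The libraries held 5318159 to 7864343 counts, with a median of 5966582. The unit was the raw count of reads from the 3' end of transcripts, so levels are given as CPM, counts scaled to library size, and are not divided by length. TPX2 fell under each siRNA, from 327 ± 27.1 CPM (SD, n = 4) in siNTC to 91.6 ± 19.8 under si45, 81.7 ± 14.3 under si46 and 71.5 ± 3.38 under si47, with no overlap with the controls (two-sided exact permutation p = 0.0286 each, the smallest that 4 against 4 libraries allow). Adrenergic neuroblastoma markers summed to 4780 to 5112 CPM in siNTC and to 5021 to 5920 CPM in the knockdown libraries, with 10 of 10 tested. Immune markers summed to at most 3.70 CPM in any library, with LYZ and CD3E at 0, endothelial markers to at most 1.68 CPM and epithelial markers to at most 9.65 CPM. Mesenchymal markers summed to 68.8 to 131 CPM over all libraries, and the part of other cell types in the results was not tested.

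The members differed widely in level in control cells. CCND1 was the highest at 799 CPM (729.8 to 854.8 in the 4 siNTC libraries), followed by CDK6 at 631 CPM (570.7 to 677.9), and their ranges did not overlap. CDK4 at 333 CPM (305.6 to 387.3) and CDK2 at 299 CPM (246.9 to 328.2) overlapped each other. CDKN1B stood at 67.7 CPM (65.23 to 70.87), apart from both neighbours. The lowest detected members were CCND3 at 24.0, CCNE1 at 22.7, CCNE2 at 22.1 and CDKN2C at 20.2 CPM, whose ranges overlapped. By level CCND1 ranked 151st and CDKN2C 6988th of the 14193 genes tested. CCND2, the third D-type cyclin, was at 0 counts in all 16 libraries, so that it was not tested, and 3 counts correspond to 0.380 to 0.568 CPM in a library and to 0.0312 CPM over all 16. AC008012.1, a protein-coding gene that overlaps CCND2 on the same strand, was also at 0, as was CCND2-AS1 on the opposite strand. How the counting treated reads shared by overlapping genes is not given in the sources used here, so a count of 0 for CCND2 does not show that its transcript was absent. Reads amplified by PCR are not independent molecules, so floors and count intervals cover counting error only.

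**Figure D1:**
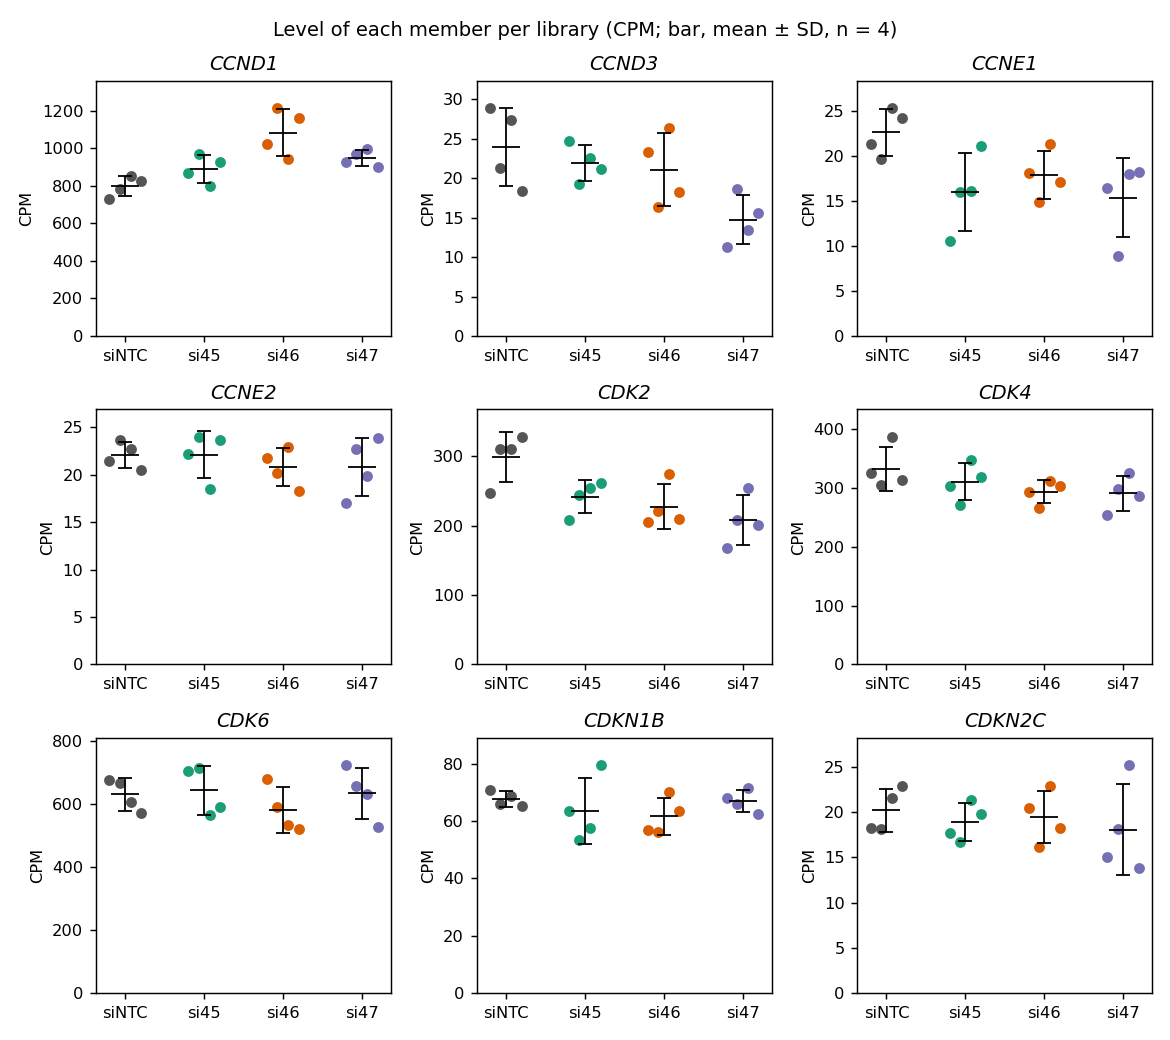
Level of each of the 9 detected members in every library (CPM, a panel per gene, points for libraries, bars for the mean ± SD, n = 4, by siRNA), with CCND1 at 729.8 to 1213 CPM and CCNE1 at 8.89 to 25.3 CPM. CCND1 sits above all controls in 11 of 12 knockdown libraries and CDK2 below all controls in 8 of 12. Members that were not called also sit below all controls in many libraries, CCNE1 in 10 of 12, CDK4 in 8 and CDKN1B in 7. The share of all genes with such counts was not computed.

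Across the 3 siRNAs taken as a mean, CCND1 rose and CDK2 fell, and the other 7 tested members did not pass the test. These 2 of 9 called members stand beside 7.14% of all genes called in that contrast. Under si45, 0 members were called by edgeR, with 1.34% of all genes called. An unadjusted edgeR p under 0.05 was found for 2 members (CCNE1 and CDK2) and for 1617 of all 14193 genes. DESeq2 and limma-voom called 0 members. Under si46 CCND1 and CDK2 were called (3.4% of all genes), and under si47 CCND3 and CDK2 were called (9.74% of all genes). The median log2 fold change of the 9 tested members was -0.10 for si45, -0.14 for si46, -0.16 for si47 and -0.10 for the mean, against 0.00097, 0.0024, 0.0043 and -0.0011 for all genes tested. 8 of the 9 members had a negative mean change, as did 7118 of the 14193 genes tested. The 3 siRNA contrasts share the same 4 control libraries, so they are given side by side and not as separate evidence. In bulk RNA, fewer cells in a phase or state and less RNA per cell cannot be told apart.

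**Figure D2:**
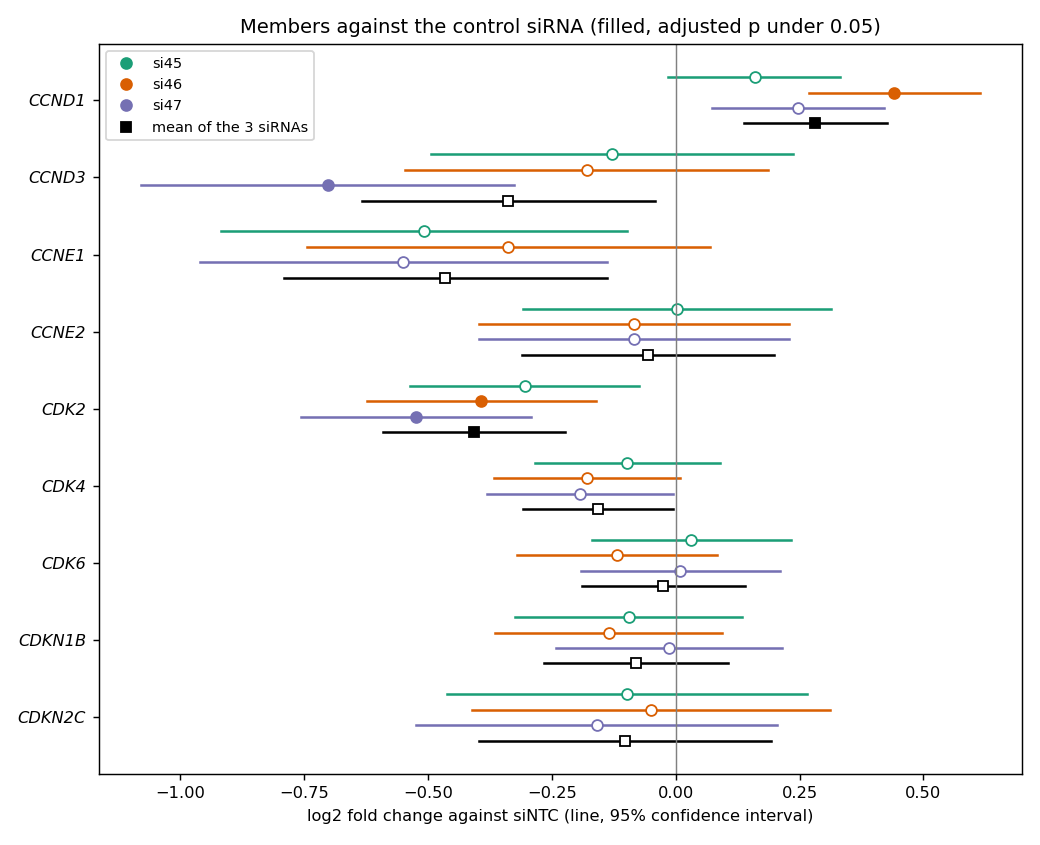
log2 fold change of the 9 tested members against siNTC for each siRNA and for the mean of the 3 (circles and squares, with lines for 95% confidence intervals, filled where the adjusted p was under 0.05). CDK2 lies below 0 under every siRNA, as do CCND3, CCNE1, CDK4, CDKN1B and CDKN2C. CCND1 lies above 0 under every siRNA, with an interval under si45 (-0.015 to 0.33) that includes 0. CCNE2 and CDK6 lie on both sides.

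Among the D-type cyclins, CCND1 encodes cyclin D1. Its level was 729.8, 784.7, 854.8 and 824.7 CPM in siNTC replicates 1 to 4 and 870.7, 970.4, 796.7 and 927.2 CPM under si45. It was 1023, 1213, 941.2 and 1160 CPM under si46 and 927, 967.8, 996.3 and 897.9 CPM under si47. All si46 and si47 libraries lay above all controls, and 1 si45 library, replicate 3, lay inside the control range. Of the 14193 genes tested, 718 lay wholly above the controls and 663 wholly below under si46, and 1052 and 990 under si47. The log2 fold change was 0.16 ± 0.085 (SE) under si45 (edgeR quasi-likelihood test, adjusted p = 0.497), 0.44 ± 0.086 under si46 (adjusted p = 0.00147), 0.25 ± 0.085 under si47 (adjusted p = 0.0619) and 0.28 ± 0.071 for the mean (adjusted p = 0.0105). The mean corresponds to 1.22 times the control level. Between siRNAs, the difference si46 minus si45 was 0.28 and did not pass (adjusted p = 0.768), and si47 minus si46 was -0.20 (adjusted p = 0.603). Without siNTC replicate 1, which is the lowest control, the mean change was 0.24 with adjusted p = 0.0754. The gene LTO1 overlaps CCND1 on the opposite strand and had a mean change of 0.40 ± 0.12 (adjusted p = 0.0435). The strand setting of the counting is not stated, so reads from the stretch shared by the 2 genes cannot be told apart. LTO1 had far fewer counts over the 16 libraries than CCND1, which had 89332. The part of LTO1 reads in the CCND1 change was not tested.

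CCND3 encodes cyclin D3, which pairs with the same kinases. Its level was 28.9, 21.3, 27.4 and 18.4 CPM in siNTC and 24.7, 19.3, 22.5 and 21.2 CPM under si45. It was 23.3, 16.4, 26.4 and 18.3 CPM under si46 and 11.3, 18.7, 13.4 and 15.6 CPM under si47. 3 of the 4 si47 libraries were below all controls, and the other groups overlapped them. The change was -0.13 ± 0.18 under si45 and -0.18 ± 0.18 under si46, and CCND3 fell by 0.70 on the log2 scale under si47 (SE 0.19, edgeR adjusted p = 0.0112). The mean change was -0.34 ± 0.15 (adjusted p = 0.171). The difference si47 minus si45 was -0.57 (adjusted p = 0.192) and si47 minus si46 was -0.52 (adjusted p = 0.477), so a difference between the siRNAs was not called. The si47 call was lost without siNTC replicate 1 and without si47 replicate 1 (change -0.59), and without replicate 3 of every group, with adjusted p up to 0.0681. With 72 to 184 counts per library, CCND3 was measured less precisely than CCND1.

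As a share of D-type cyclin counts, CCND3 was 2.93 ± 0.69% in siNTC, 2.42 ± 0.40% under si45, 1.96 ± 0.64% under si46 and 1.53 ± 0.32% under si47 (SD, n = 4). CCND1 made up all the rest, since CCND2 was at 0. All 4 si47 libraries (1.21 to 1.89%) were below all controls (2.18 to 3.80%). This share moves with both genes and was not tested.

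**Figure D3:**
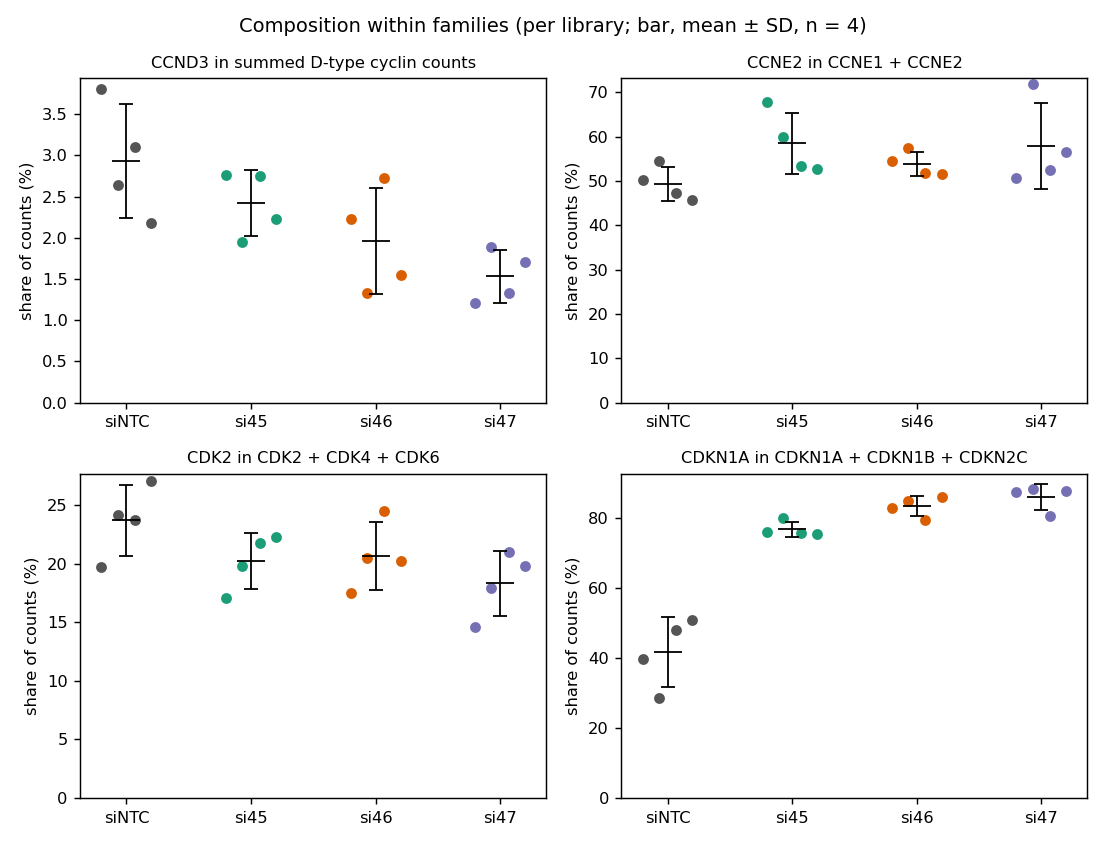
Share of a member in the summed counts of its family in each library (percent, points for libraries, by siRNA). Bars give the mean ± SD (n = 4). The CCND3 share spans 2.18 to 3.80% in siNTC and 1.21 to 1.89% under si47.

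CCNE1 and CCNE2 encode the cyclins that activate CDK2 at the G1/S border. CCNE1 stood at 21.3, 19.7, 25.3 and 24.3 CPM in siNTC, at 10.6, 16.1, 16.1 and 21.2 CPM under si45, at 18.1, 14.9, 21.4 and 17.1 CPM under si46 and at 16.5, 8.89, 17.98 and 18.3 CPM under si47. 10 of 12 knockdown libraries were below all controls, and the si47 libraries did not overlap them. Under si47, 990 of the 14193 genes tested lay wholly below the controls and 1052 wholly above. The log2 fold change was -0.51 ± 0.20 under si45 (edgeR adjusted p = 0.285), -0.34 ± 0.20 under si46 (adjusted p = 0.459), -0.55 ± 0.20 under si47 (adjusted p = 0.0817) and -0.47 ± 0.16 for the mean (adjusted p = 0.0730), so no call was made. The mean passed with no low-count filter (adjusted p = 0.0451), without si45 replicate 4 (adjusted p = 0.0440) and with the replicate number as a block (adjusted p = 0.0163), and si47 passed with the block (adjusted p = 0.0202). With other libraries left out, the edgeR adjusted p rose, up to 0.2145 for the mean and 0.2923 under si47. The level rests on 49 to 143 counts a library, and no other gene overlaps CCNE1 in the annotation.

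CCNE2 stood at 21.5, 23.6, 22.7 and 20.5 CPM in siNTC and at 17.0 to 24.0 CPM in the knockdown libraries, and the groups overlapped. The change was 0.0024 under si45, -0.085 under si46 and -0.085 under si47, and the mean was -0.056 with a 95% confidence interval of -0.31 to 0.20. The lower bound of that interval lies above the mean change estimated for CCNE1, but the interval of CCNE1 (-0.79 to -0.14) overlaps it, and the difference between the genes was not tested. CCNE2 was above CCNE1 in 2 of 4 siNTC libraries and in 12 of 12 knockdown libraries. The share of CCNE2 in E-type cyclin counts was 49.4 ± 3.87% in siNTC, 58.5 ± 6.98% under si45, 53.9 ± 2.81% under si46 and 57.9 ± 9.62% under si47, with overlap, and was not tested. INTS8 and NDUFAF6 overlap CCNE2 on the opposite strand, with mean changes of 0.27 and -0.18 (adjusted p = 0.457 and 0.421).

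CDK2, the kinase of the E-type cyclins, fell. Its level was 246.9, 310.3, 310.0 and 328.2 CPM in siNTC and 208.4, 243.9, 253.8 and 261.8 CPM under si45. It was 206.0, 221.0, 274.4 and 209.2 CPM under si46 and 167.5, 208.1, 254.7 and 200.5 CPM under si47. 8 of 12 knockdown libraries were below all controls, and the 4 others lay above siNTC replicate 1 but below the other 3 controls. The log2 fold change was -0.31 ± 0.11 under si45 (edgeR adjusted p = 0.247), -0.39 ± 0.11 under si46 (adjusted p = 0.0494), -0.53 ± 0.11 under si47 (adjusted p = 0.00281) and -0.41 ± 0.090 for the mean (adjusted p = 0.00431), or 0.754 times the control. The si46 call lies at the threshold. It was lost with RLE factors (adjusted p = 0.0522), with upper-quartile factors (0.0539), with limma-voom (0.0539), with at least 10 counts in every library (0.0596) and without any 1 of 11 libraries (up to 0.174), namely siNTC replicates 2, 3 and 4, si45 replicates 2, 3 and 4, si46 replicates 1, 2 and 4, and si47 replicates 2 and 4. With each of the 16 libraries left out in turn, and without replicate 3 of every group, the mean change ran from -0.49 to -0.36. Its edgeR adjusted p was up to 0.0381. The si47 minus si45 difference was -0.22 ± 0.11 (adjusted p = 0.507). PMEL overlaps CDK2 on the opposite strand and rose under si46 (0.76 ± 0.18, adjusted p = 0.0159), opposite in sign to CDK2.

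CDK4 and CDK6 are the kinases of the D-type cyclins. CDK4 was at 325.5, 305.6, 387.3 and 313.1 CPM in siNTC and at 253.8 to 348.7 CPM in the knockdown libraries, and the groups overlapped, with 8 of 12 below all controls. Its mean change was -0.16 ± 0.075 (edgeR adjusted p = 0.226), with a 95% confidence interval of -0.31 to -0.0046. CDK6 was at 677.9, 667.9, 605.9 and 570.7 CPM in siNTC and at 519.7 to 723.3 CPM in the knockdown libraries, with 4 of 12 above and 4 of 12 below all controls. Its mean change was -0.026 ± 0.081 (adjusted p = 0.899), with an interval of -0.19 to 0.14. Neither kinase passed, and the CDK6 interval leaves out a fall as large as that estimated for CDK2.

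By group mean, CDK6 was the highest kinase, CDK4 the next and CDK2 the lowest in siNTC and under each siRNA. Within single libraries, CDK2 was above CDK4 in 2 of 4 siNTC libraries and in 0 of 12 knockdown libraries. CDK2 made up 23.7 ± 3.01% of the counts of the 3 kinases in siNTC, 20.2 ± 2.36% under si45, 20.7 ± 2.89% under si46 and 18.3 ± 2.77% under si47. CDK6 made up 65.4 ± 3.41% of CDK4 and CDK6 in siNTC and 66.2 to 68.4% on average under the siRNAs. The CDK2 share was chosen after its values were seen, and neither share was tested. TSPAN31 and MARCH9 overlap CDK4 on the opposite strand (mean changes 0.13 and -0.10), as AC002454.1 does CDK6 (-0.093), and none of these passed (adjusted p = 0.751, 0.740 and 0.707).

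The kinases also moved with the replicate number of the labels. CDK6 was higher in replicates 1 and 2 than in replicates 3 and 4 in each of the 4 groups, with means over the groups of 697, 658, 584 and 552 CPM for numbers 1 to 4. CDK2 was lowest in replicate 1 in each of the 4 groups, with means of 207, 246, 273 and 250 CPM. CDK4 had another pattern, highest in replicate 3 in each of the 4 groups, with means of 294, 286, 344 and 306 CPM. How many of all genes show such patterns was not computed. The labels say nothing of what a number shares. Fitted as a block, the number changed the members called by edgeR from 0 to 1 under si45 (CDK2, adjusted p = 0.00899), from 2 to 4 under si47 (adding CCND1, adjusted p = 0.00887, and CCNE1, adjusted p = 0.0202) and from 2 to 3 for the mean (adding CCNE1, adjusted p = 0.0163). With the block, calls over all 14193 genes also rose, from 190 to 577 (si45), 1382 to 2198 (si47) and 1014 to 1817 (mean). Deviations from the group mean, compared between members over 16 libraries that share depth and scaling, had Pearson r from -0.55 (CCND1 and CCND3) to 0.71 (CDK2 and CDKN2C), as a description of 36 pairs.

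**Figure D4:**
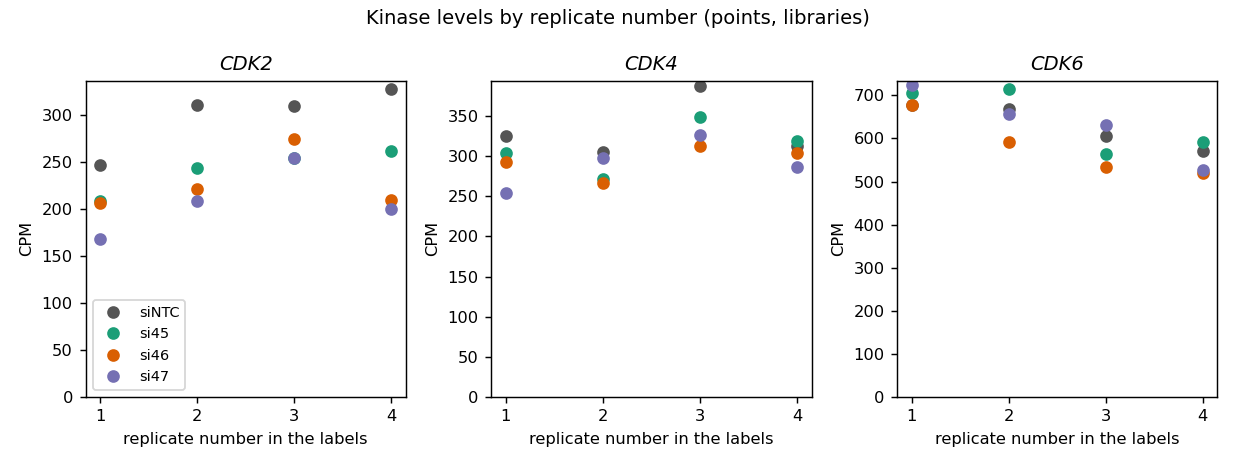
Level of CDK2, CDK4 and CDK6 in each library (CPM, axes from 0) by the replicate number of the labels, coloured by siRNA. CDK6 is higher in replicates 1 and 2 in every group, CDK2 is lowest in replicate 1 in every group, and CDK4 is highest in replicate 3.

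The 2 inhibitors among the members did not pass under any siRNA. CDKN1B was at 70.9, 65.9, 68.8 and 65.2 CPM in siNTC, a coefficient of variation of 3.90%, and at 53.5 to 79.5 CPM in the knockdown libraries. Its mean change was -0.081 ± 0.092 (edgeR adjusted p = 0.678), with a 95% confidence interval of -0.27 to 0.11. CDKN2C was at 18.3, 18.1, 21.6 and 22.9 CPM in siNTC and at 13.9 to 25.2 CPM in the knockdown libraries. Its mean change was -0.10 ± 0.15 (adjusted p = 0.750), with an interval of -0.40 to 0.19. Both groups of values overlapped the controls. AC008115.3 lies within CDKN1B on the same strand (mean change -0.21, adjusted p = 0.710), and no gene overlaps CDKN2C.

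CDKN1A (p21), the inhibitor of CDK2 complexes that is outside the members, gives a contrast in level. It was at 66.7 ± 26.1 CPM in siNTC, 274 ± 27.6 under si45, 417 ± 65.1 under si46 and 547 ± 102 under si47, with all 12 knockdown libraries above all controls. Its mean change was 2.58 ± 0.23 (adjusted p = 2.06e-05). CDKN1A was above CDKN1B in 2 of 4 siNTC libraries and in 12 of 12 knockdown libraries, and it was above CDK2 in 0 of 4 and in 11 of 12. CDKN1A made up 41.8 ± 9.996% of the counts of CDKN1A, CDKN1B and CDKN2C in siNTC, 76.9 ± 2.23% under si45, 83.5 ± 2.87% under si46 and 86.2 ± 3.62% under si47. This share was chosen after its values were seen.

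Differences between siRNAs were tested directly. 0 of 9 members were called by edgeR for si46 minus si45 (0.0282% of all genes), si47 minus si45 (0.169%) and si47 minus si46 (0.0493%). In that order, the unadjusted edgeR p was under 0.05 for 1, 1 and 2 members and for 582, 1475 and 1034 of all 14193 genes. DESeq2 and limma-voom called 0 members. The same-numbered si45 and si47 libraries deviated together, and with the replicate number as a block si47 minus si45 had 398 called genes in place of 24 and still 0 members. 0 of 9 members had all 12 knockdown libraries on 1 side of all controls, against 2.52% of all genes.

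Other genes of the pathway were taken as a list of 48, of which 46 were tested. For the mean of the siRNAs 13 were called, 6 higher and 7 lower, beside 7.14% of all genes tested (513 higher and 501 lower), with a median change of 0.020 against -0.0011 for all genes. Under si45, si46 and si47 the called list genes were 3, 9 and 17, beside 1.34%, 3.4% and 9.74% of all genes, which are higher in the same order. Of the other inhibitors, 2 of 5 tested rose, CDKN1A and CDKN1C (p57; 0.71 ± 0.18, edgeR adjusted p = 0.0156), and CDKN2D (p19) was at 0.41 (adjusted p = 0.179). The CDKN1C call was lost without siNTC replicate 1, 2 or 3, with adjusted p up to 0.0780.

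Of the other cyclins and kinases, 2 of 10 tested rose and 2 fell. CDK1, the mitotic kinase, fell by 0.50 on the log2 scale (SE 0.076, edgeR adjusted p = 3.27e-05) and was below all controls in 12 of 12 libraries. The share of all genes with all 12 on 1 side of the controls was 2.52%. CDK1 was named for its low p in this contrast, so its separation from the controls is not separate evidence. CCNG1, a p53 target, rose by 0.67 (adjusted p = 3.71e-04), and CCNH, the cyclin of the CDK-activating kinase, rose by 0.77 from a low 6.83 CPM (adjusted p = 0.00978; 0.0656 without siNTC replicate 3). The other gene that fell was CCNA2, the S phase cyclin that follows the E-type cyclins on CDK2 (-0.33, adjusted p = 0.0141). CCNA2 lies outside the naming rule and was picked with its values known.

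Of the enzymes that set CDK phosphorylation, 1 of 4 was called. PKMYT1, which inhibits CDK1, fell by 0.46 (edgeR adjusted p = 0.00105). WEE1, which does the same for CDK1 and CDK2, was at -0.29 (adjusted p = 0.0822), and CDC25A, the activating phosphatase, at -0.17 (adjusted p = 0.265). Of the 17 turnover genes, 1 rose and 1 fell. FBXW7, the ubiquitin ligase subunit that binds cyclin E, rose by 0.58 (adjusted p = 5.14e-06) and was at 132 ± 14.8 CPM in siNTC and 236 ± 29.1 under si47. DTL, a ligase subunit of S phase that targets p21, fell by 0.50 (adjusted p = 7.70e-04), and SKP1 was at 0.19 (adjusted p = 0.102).

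Of the 10 pocket protein and E2F genes, 3 fell and 1 rose. E2F1 fell by 0.59 (edgeR adjusted p = 7.65e-04), E2F2 by 0.60 (adjusted p = 0.00102) and RBL1 (p107) by 0.60 (adjusted p = 8.30e-04), each below all controls in 12 of 12 libraries. Of all genes tested, 2.52% had all 12 knockdown libraries on 1 side of the controls. E2F1, E2F2 and RBL1 were named for the lowest p in this contrast, so their separation from the controls is not separate evidence. E2F1 was at 257 ± 9.45 CPM in siNTC and 139 ± 34.3 under si47. TFDP2, an E2F partner, rose by 0.24 (adjusted p = 0.0461), and was likewise picked with its values known.

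**Figure D5:**
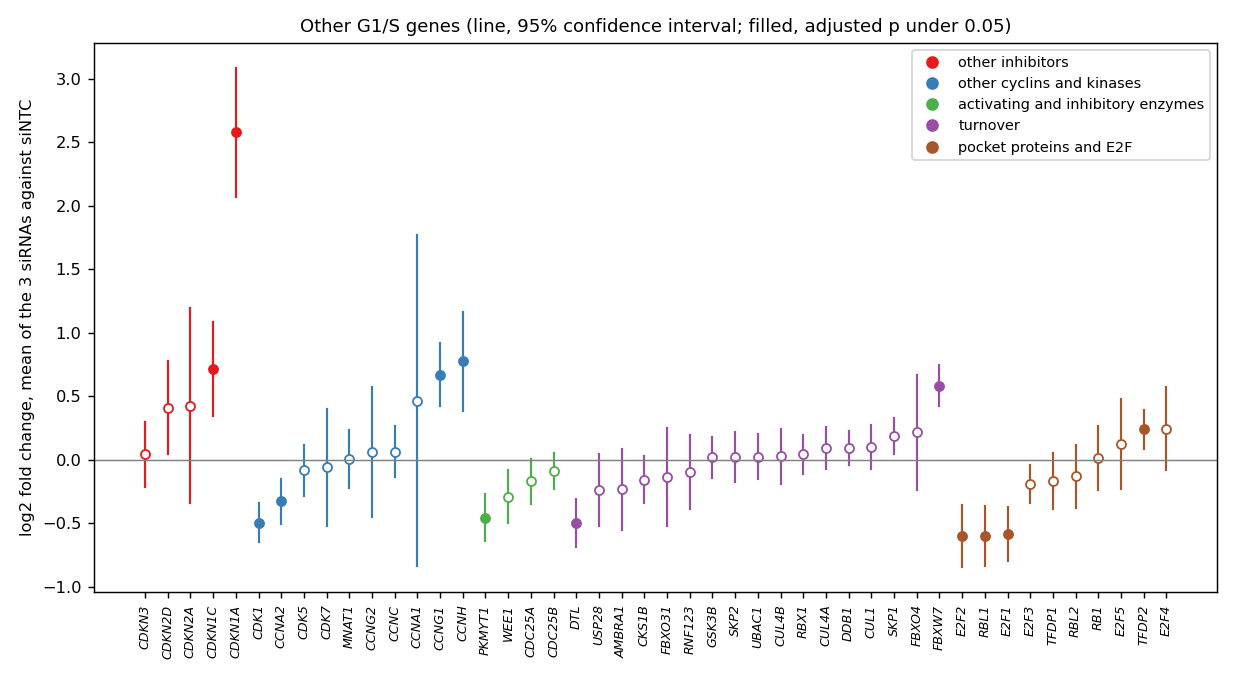
log2 fold change of the tested list genes for the mean of the 3 siRNAs against siNTC (points, lines for 95% confidence intervals, filled where the adjusted p was under 0.05). CDKN1A lies far above the others at 2.58, and E2F1, E2F2, RBL1, DTL and CDK1 lie near -0.5 to -0.6.

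The genes with levels most like the 2 called members were named by Pearson r of log2 CPM over the 16 libraries, with no test. For CDK2 they were CTDNEP1 (r = 0.97, Spearman rho 0.92), the histone gene H4C3 (0.93, 0.91) and AURKB (0.92, 0.87), the mitotic kinase of the chromosomal passenger complex. For CCND1 they were the histone gene H2BC15 (0.88, 0.79), ETV5 (0.87, 0.84) and KLHL13 (0.84, 0.92). All points share the groups and the scaling, so part of each r is the difference between siRNAs. CDK2 and CCND1 were themselves the members of lowest p for the mean of the siRNAs. Genes picked for following them over the same libraries tend to change in that contrast too. The calls given next are therefore a description and not separate evidence. AURKB fell by 0.51 (edgeR adjusted p = 2.47e-04) and ETV5 rose by 1.31 (adjusted p = 0.0327) for the mean of the siRNAs. CTDNEP1 was not called (-0.195, adjusted p = 0.0688). H4C3 (-0.613, adjusted p = 0.0188), H2BC15 (1.01, 0.0242) and KLHL13 (0.492, 0.0111) were called. Each of these calls was lost without some single siNTC libraries (adjusted p up to 0.07205, 0.111 and 0.06029). H2BC15 was at a low 3.41 CPM in siNTC and was not called by limma-voom (adjusted p = 0.0923). The ETV5 call was lost without any 1 of the 4 siNTC libraries and without replicate 4 of si45, si46 or si47, with adjusted p up to 0.114.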

How the data were processed

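RNA of 16 IMR32 libraries (3' end QuantSeq, single-end reads, 15 PCR cycles per the labels) was analysed. The authors deposited raw counts per Ensembl gene, whole numbers that were not normalized. The submitters' processing notes name FastQC 0.11.7, STAR 2.7.2b, edgeR 3.36.0, limma 3.50.3 and GRCh38. The counter, the use of strand and any collapse of molecular identifiers are not given in the sources used here. Positions came from GENCODE 29 on GRCh38.

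Counts were tested with edgeR 4.0.16 (R 4.3.3): filterByExpr (minimum count 10, total 15), TMM, and 1 robust quasi-likelihood fit of 4 groups over 16 libraries, with Benjamini-Hochberg adjustment over 14193 genes and a threshold of 0.05. The standard error is the change divided by the square root of F. TPX2 was also tested by permutation on log2(CPM + 1). Replicate pairs had chi-square values of 4.58 to 10.6 per degree of freedom, so none agreed within sampling noise. Members and lists were chosen with earlier results of these data known. Named genes were all members, TPX2, CDKN1A, up to 3 genes per list group with the lowest p for the mean of the siRNAs, and the 3 genes most correlated with each of the 2 members of lowest p (prior count 2). Deviations from group means correlated over 0.1 in every same-numbered pair only for si45 and si47 (r = 0.12 to 0.242), a pairing seen in the data, not the labels. Alternatives were other scaling factors, DESeq2 1.42.0, limma-voom 3.58.1, other filters, only the groups compared, the replicate block, a threshold of 0.01 and left-out libraries.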

Additional observations from a re-analysis of the deposited data

Results flagged for a closer look

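3 of 68 groups of 4 libraries had 1 library far from the other 3, where chance would give about 3.4. TPX2 was at 121 CPM in si45 replicate 3 and at 79.4 to 85.1 CPM in the other si45 libraries. The share of CDKN1A in the counts of CDKN1A, CDKN1B and CDKN2C was 80.21% in si45 replicate 2 against 75.6 to 76.0% in the others, and 80.77% in si47 replicate 3 against 87.5 to 88.5% in the others.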

How the results depend on the processing

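With the replicate number as a block, members called were 1 (CDK2) for si45, 2 for si46, 4 for si47 (CCND1, CCND3, CCNE1 and CDK2) and 3 for the mean. CCNE1 then had edgeR adjusted p = 0.0163 for the mean and 0.0202 under si47. Over all 14193 genes the block called 577, 1073, 2198 and 1817 for si45, si46, si47 and the mean. Without it, 190, 482, 1382 and 1014 genes were called. Same-numbered libraries had positive r in all 24 pairs between groups (0.019 to 0.247), with r over 0.1 for every number only between si45 and si47. Of the 16 libraries, 15 correlated best with their own number, a hint from the data. For si46, 1 member was called with RLE factors, upper-quartile factors, limma-voom, at least 10 counts in every library and the 0.01 threshold, and the 0.01 threshold left 1 for si47 and 1 for the mean. Leaving out single libraries, or replicate 3 of every group (chosen after seeing the data), gave 1 to 2 members for si46, 1 to 3 for si47 and 1 to 3 for the mean. CCND1 under si47 passed with DESeq2 (adjusted p = 0.0454). Signs turned for changes that were never called: CCNE2 under si45 was -0.0021 with limma-voom, and leaving out libraries gave -0.035 to 0.089 there, -0.16 to 0.0067 for CCNE2 under si47, -0.016 to 0.090 for CDK6 under si45, -0.056 to 0.088 for CDK6 under si47, -0.072 to 0.0096 for CDK6 in the mean, -0.048 to 0.018 for CDKN1B under si47, -0.13 to 0.026 for CDKN2C under si46 and -0.18 to 0.050 for CCND3 in si46 minus si45. The causes were not tested. Members near 20 CPM rest on 49 to 184 counts a library, which limits the changes that can be called.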
